A study of Caenorhabditis elegans with 2 samples.

Results

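Spliced leader 2 (SL2) RNA genes of Caenorhabditis elegans were examined for chromatin immunoprecipitation sequencing (ChIP-seq) regions of the protein T26A5.8. The genes described are sls-2.1, sls-2.2, sls-2.4, sls-2.8, sls-2.14, sls-2.15 and sls-2.16. They were chosen by the peak calls themselves, because a region of the authors' reproducible (thresholded) list had its summit within 200 bp of each of the 7 genes, so the presence of a region and its signal are descriptions and were not tested. They are 7 of 19 annotated sls-2 genes and of 46890 genes on the nuclear chromosomes. Of the 19 genes, 18 are annotated as small nuclear RNA (snRNA) genes and sls-2.19 as a pseudogene.

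The samples were whole young adult worms of mixed sex from strain OP598, which carries the unc-119(tm4063) mutation on chromosome III and the integrated transgene wgIs598. The transgene expresses T26A5.8 with a C-terminal GFP-FLAG tag, and chromatin was recovered with an antibody against GFP. There was 1 group of 2 biological replicates, numbered 3 and 4, collected 63 h after synchronization by starvation of first-stage larvae, and no other group was analysed here. Both replicates come from 1 transgenic line of whole organisms, so the cell types behind a region cannot be told apart. The thresholded list held 369 regions, and the pooled list and each replicate list held 30000 candidate regions including background. Read depth is unknown, because the lists hold no counts.

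In nematodes, many messages receive their first bases from another RNA. A spliced leader RNA is a short transcript, packaged with Sm proteins like the RNAs of the spliceosome, whose 5′ part is cut off at a splice donor and joined to the message in trans. SL1 is joined mainly to the first or only gene of a transcription unit, and SL2 mainly to downstream genes of operons, where several genes are transcribed together. Like other snRNA genes, spliced leader genes are short, and in nematodes their transcription uses a promoter element a little upstream of the start that the SNAP complex recognises.

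The leaders of the genes printed here are shown because they identify these genes as SL2 copies and separate them into types. Each is the reference sequence (RefSeq, WBcel235, the ce11 build), from the first base through the AG before the first AGGT, 5′ to 3′, in capitals within the whole gene. The later run in capitals is ATTTTTG, letters of the kind that Sm proteins bind, which sls-2.2 lacks. The sequence of sls-2.4 is not shown.
sls-2.1: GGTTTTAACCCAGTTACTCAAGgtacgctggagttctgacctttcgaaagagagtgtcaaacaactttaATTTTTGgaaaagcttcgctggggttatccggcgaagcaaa
sls-2.2: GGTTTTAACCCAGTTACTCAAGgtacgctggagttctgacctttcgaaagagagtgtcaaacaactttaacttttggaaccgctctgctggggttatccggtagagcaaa
sls-2.8: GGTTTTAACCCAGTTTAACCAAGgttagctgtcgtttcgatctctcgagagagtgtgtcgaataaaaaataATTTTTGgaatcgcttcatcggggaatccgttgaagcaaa
sls-2.14: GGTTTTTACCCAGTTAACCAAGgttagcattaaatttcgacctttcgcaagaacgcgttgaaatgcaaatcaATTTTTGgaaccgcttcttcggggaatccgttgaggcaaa
sls-2.15: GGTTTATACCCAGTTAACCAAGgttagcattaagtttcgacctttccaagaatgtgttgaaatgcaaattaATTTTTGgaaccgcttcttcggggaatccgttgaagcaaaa
sls-2.16: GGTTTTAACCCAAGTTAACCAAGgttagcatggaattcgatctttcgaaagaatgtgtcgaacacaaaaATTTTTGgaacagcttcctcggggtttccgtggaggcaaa

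The genes lie at chrII:5844865-5844974 (sls-2.1, forward strand), chrII:5543598-5543707 (sls-2.2, forward), chrIII:12250465-12250575 (sls-2.8, forward), chrIII:11090412-11090523 (sls-2.14, reverse), chrIII:11091010-11091121 (sls-2.15, forward) and chrIII:7141391-7141499 (sls-2.16, forward). The gene sls-2.4 lies at chromosome I, 4172206 to 4172315, on the forward strand. Its leader is identical to that of sls-2.1, sls-2.2 and sls-2.3. All 19 genes begin with GGTTT, and their leaders run from 21 to 23 bases in 12 distinct forms. The 7 genes hold 5 of these forms, 4 of which (in sls-2.8, sls-2.14, sls-2.15 and sls-2.16) occur in no other sls-2 gene.

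The letters ATTTTTG were present on the gene strand in 6 of the 7 genes, beginning between base 70 and base 73, and in 8 of the other 12. The same letters were present in 59.6% of the 99 other snRNA genes and in 4.99% of other genes of 60 to 200 bp. Neither they nor the shorter ATTTTG were found in sls-2.2. ATTTTG was found in 4 of the other sls-2 genes (sls-2.5, sls-2.10, sls-2.11 and sls-2.18) and in none of the 7.

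By the choice of members, each of the 7 genes had a thresholded summit within 200 bp. Such a summit lay near 1.37% of all 46890 genes, 22.1% of tRNA genes, 10.1% of the 129 snRNA genes and 6.06% of the 99 snRNA genes that are not spliced leader genes. Among the 19 sls-2 genes the share was 36.8%. None of the other 12 sls-2 genes had one, which is how the genes were separated. The 7 genes had 7 different regions. Signal is the enrichment value of the authors' caller, with a scaling that is not stated, so values of different lists need not share a scale. Ratios between the replicates are therefore set against the ratio over all 369 thresholded regions.

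The strongest of these regions was at sls-2.4, with a thresholded signal of 244.6 (rank 7 of 369). Its signal was 242.7 in the pooled list, 139.2 in replicate 3 and 112.7 in replicate 4, and it ranked 6 of 30000 in each of these lists. This was the highest value of any sls-2 gene in every list. At sls-2.1 the signal was 137.5 (rank 75), with 78.2 in replicate 3 (rank 72) and 58.4 in replicate 4 (rank 116). At sls-2.15 it was 129.2 (rank 92), with 68.8 in replicate 3 (rank 109) and 61.2 in replicate 4 (rank 92). Both replicates thus placed these 3 genes among their 369 strongest entries, and the same held for sls-2.8 and sls-2.16, described next.

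The other 4 genes lay below the 184 strongest thresholded regions. At sls-2.8 the signal was 102.5 (rank 211), with 55.1 in replicate 3 (rank 247) and 51.4 in replicate 4 (rank 173). At sls-2.16 it was 91.3 (rank 323, against a lowest signal of 87.7 in the list), with 51.0 in replicate 3 (rank 327) and 52.6 in replicate 4 (rank 159). The ratio of replicate 3 to replicate 4, by strongest entry, was 1.07 at sls-2.8 and 0.97 at sls-2.16. Over all thresholded regions the median ratio was 1.26. At sls-2.16 the strongest entries of the replicates were different entries by position. Replicate 3 had another entry at sls-2.16, nearer to the thresholded summit, with a signal of 32.4 (rank 1568).

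The replicates were farther apart at sls-2.2 and sls-2.14. At sls-2.2 the thresholded signal was 100.6 (rank 225), and the strongest entry within 200 bp was 40.8 in replicate 3 (rank 671) but 73.5 in replicate 4 (rank 39). At sls-2.14 the thresholded signal was 96.9 (rank 253), and the strongest entry was 66.6 in replicate 3 (rank 128) but 24.5 in replicate 4 (rank 2878). The ratio of replicate 3 to replicate 4 was 0.56 at sls-2.2 and 2.72 at sls-2.14. Over all 369 thresholded regions, taking the strongest overlapping entry of each replicate, this ratio had a median of 1.26, with 0.71 and 2.23 as the 5th and 95th percentiles. The remaining 5 genes had ratios from 0.97 to 1.34. With the entry nearest the thresholded summit in place of the strongest one, a choice made after the data had been seen, the ratio was 0.62 at sls-2.16 and 0.47 at sls-2.2 and stayed as it was at the other 5 genes. By strongest entry, the ratios at sls-2.14 and sls-2.2 thus lay outside the 5th to 95th percentiles of all regions, and that at sls-2.16 lay inside. No such percentiles were computed for the nearest entry, so 0.62 and 0.47 cannot be set against them.

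**Figure D1:**
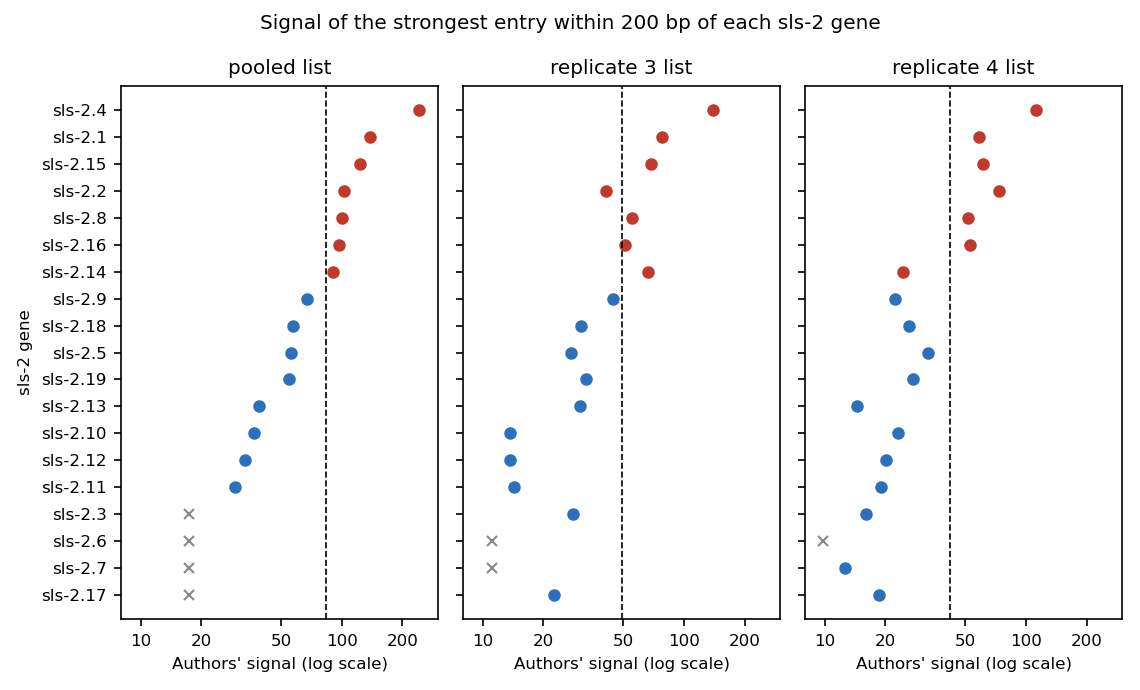
Signal of the strongest entry with its summit within 200 bp of each sls-2 gene (authors' values, log scale) in the pooled list and in each replicate list. Red points are the 7 listed genes, blue points the other sls-2 genes, grey crosses genes with no entry, and the dashed line is the signal of the 369th strongest entry of that list. In the pooled list all red points lie right of the line. In replicate 3 sls-2.2 (40.8) and in replicate 4 sls-2.14 (24.5) lie left of it.

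In the thresholded list 6 of the 7 summits lay beyond the 3′ end of the gene, and in each replicate list 4 of the 7 strongest entries did. The share of such positions over all genes with a summit was not computed. Positions are given along the gene strand, with the distance from the gene start and then from the gene end. In the thresholded list the summit was 1 bp past the end of sls-2.4 (110 bp from its start), 47 bp past sls-2.8 (157 bp), 53 bp past sls-2.14 (164 bp), 64 bp past sls-2.15 (175 bp), 104 bp past sls-2.16 (212 bp) and 156 bp past sls-2.2 (265 bp). Only at sls-2.1 did it lie upstream, 18 bp before the start. The median was 164 bp from the start, where the genes are 109 to 112 bp long.

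The replicates placed the summit at sls-2.1 at exactly the same base, 18 bp before the start. Elsewhere the positions varied. At sls-2.4 the summit was 164 bp from the start in replicate 3 and 93 bp in replicate 4, at sls-2.8 it was 146 and 192 bp, and at sls-2.15 it was 228 and 140 bp. At sls-2.14 it was 166 bp in replicate 3 and 59 bp, inside the gene, in replicate 4. The strongest entries were farthest apart at sls-2.16, with 55 and 260 bp (205 bp apart), and at sls-2.2, with -1 and 166 bp (167 bp apart). Replicate 3 also held weaker entries on the far side of both genes. At sls-2.16 that entry was at 259 bp, 1 bp from the summit of replicate 4. At sls-2.2 it was at 275 bp, with a signal of 34.8 (rank 1209), 109 bp from the summit of replicate 4.

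In both replicates 4 of the 7 strongest entries had a summit past the gene end, against 6 in the thresholded list. In replicate 3, sls-2.1 and sls-2.2 had it upstream and sls-2.16 inside the gene. In replicate 4, sls-2.1 had it upstream and sls-2.4 and sls-2.14 inside. With the entry nearest the thresholded summit, the count past the gene end was 6 in replicate 3 and 4 in replicate 4. The median width of an entry was 360 bp (356 bp in replicate 3), longer than any of these genes, so a single entry can cover a gene and part of its flank.

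**Figure D2:**
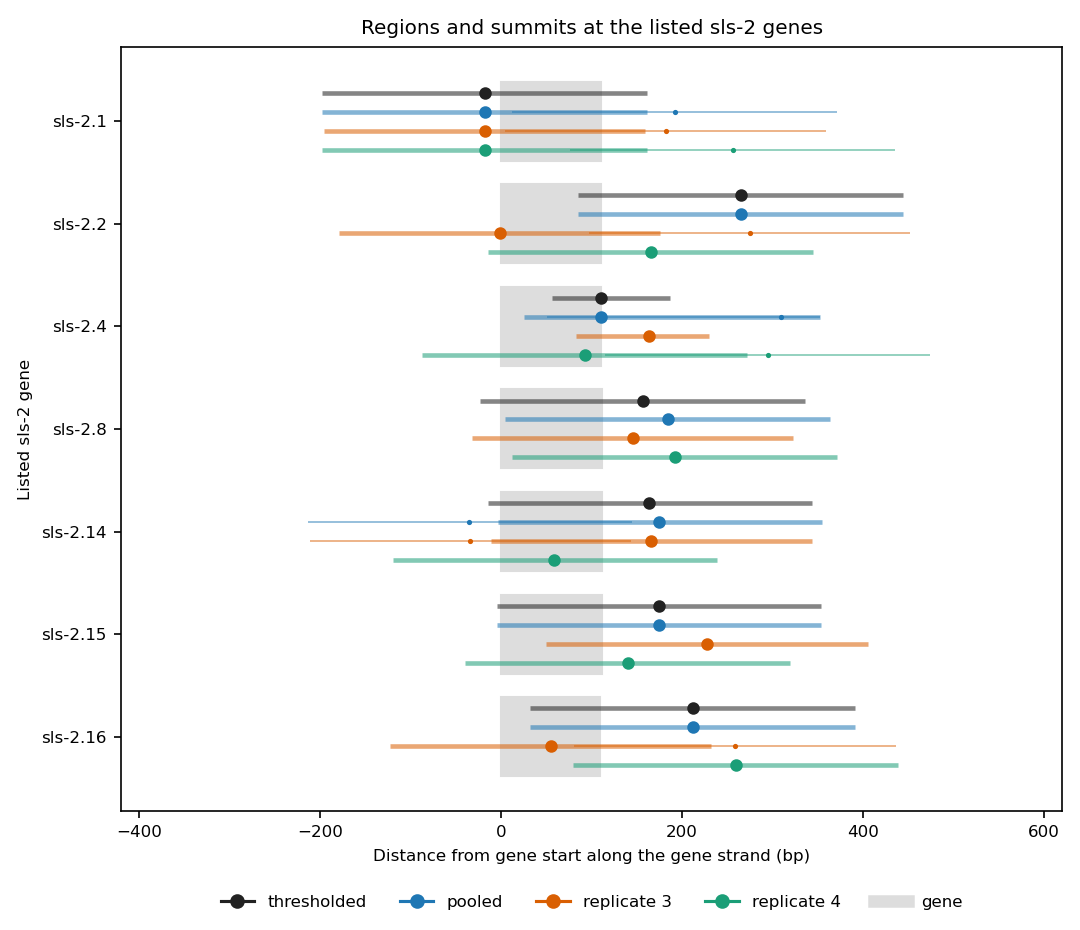
Regions (lines) and summits (points) within 200 bp of each listed gene, by distance from the gene start along the gene strand in bp. Grey boxes are the genes, colours the 4 lists, and thick lines with large points the strongest entry of a list. The thresholded summit lies right of the gene box at 6 genes and 18 bp upstream at sls-2.1.

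At sls-2.1 the flank past the gene held its own weaker entries. The pooled entry there had a summit 192 bp from the start and a signal of 32.6 (rank 8425), against 137.7 for the upstream one. In replicate 4 it was at 256 bp with 28.4 (rank 1556). At sls-2.14 the reverse held, with a weak pooled entry 35 bp upstream of the start (33.1, rank 8079), against 90.2 for the one past the gene. A stronger further entry was present at sls-2.4, 200 bp past the gene end in the pooled list (69.0, rank 637). In replicate 4 a further entry lay 186 bp past the end of sls-2.4 (32.8, rank 885).

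The genes sls-2.14 and sls-2.15 point away from each other, with 486 bp between their starts. Their thresholded summits lay on the outer sides of the pair, 826 bp apart, and the space between the starts held the summit of no thresholded region. Both genes lie in introns of W09D6.5, and both summits lay in its coding exons. The gene sls-2.16 is in an intron of glr-2, which encodes a glutamate receptor subunit, on the strand opposite to glr-2. Its summit lay in a coding exon of glr-2 and in an exon of the non-coding gene B0280.22, 41 bp inside that gene's start. The neighbouring sls-2.5 and sls-2.18 are in introns of glr-2 as well, 837 bp to the left and 791 bp to the right of sls-2.16, and had no thresholded region.

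The other 4 genes lie between protein-coding genes. The summit at sls-2.8 was 38 bp upstream of the start of the protein-coding gene Y75B8A.23, nearer to it than to sls-2.8. That at sls-2.4 was 122 bp past the end of R12E2.11, which is transcribed toward it, and 727 bp upstream of the start of egg-5. At sls-2.1 the nearest protein-coding end was that of nep-25, 227 bp away, and the nearest start was that of ZK1248.17, 694 bp away. At sls-2.2 the nearest protein-coding start or end was the end of ins-13, which encodes an insulin-like peptide, 649 bp away. Another annotated gene lay within 200 bp of the summit at 6 of the 7 genes, the exception being sls-2.1, so these 6 regions cannot be assigned to the spliced leader gene alone.

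Non-coding RNA genes annotated on the opposite strand overlap sls-2.2 (C17C3.23), sls-2.4 (R12E2.18) and sls-2.8 (Y75B8A.49). No tRNA, snoRNA or miRNA gene and no other sls-2 gene lay within 200 bp of the 7 summits. At sls-2.2 the convergent copy sls-2.3 begins its transcript 410 bp from the summit and ends 301 bp from it.

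Entries were also present at most of the 12 other sls-2 genes. In the pooled list 8 of the 12 had a summit within 200 bp (66.7%), against 32.7% of all genes and 53.5% of snRNA genes that are not spliced leader genes. Over all 19 sls-2 genes the pooled share was 78.9%. In replicate 3 it was 89.5% of the 19 and 83.3% of the 12, against 33.5% of all genes and 49.5% of the snRNA genes that are not spliced leader genes. In replicate 4 it was 94.7% and 91.7%, against 33.6% and 48.5%. The highest in the pooled list was at sls-2.9, with a signal of 67.2 (rank 683), 44.3 in replicate 3 (rank 495) and 22.4 in replicate 4 (rank 4098). This gene had its summit 112 bp upstream of the start. The next were sls-2.18 with 57.3 (rank 1132), sls-2.5 with 56.1 (rank 1200) and the pseudogene sls-2.19 with 54.8 (rank 1303). These 3 had their summits 121, 134 and 118 bp past the gene end.

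By pooled rank, then, the highest genes outside the choice were sls-2.9, sls-2.18, sls-2.5 and sls-2.19. The choice itself used the thresholded list. The 369th pooled entry had a signal of 82.9, above all of these. The lowest inside were sls-2.14 with 90.2 in the pooled list (rank 285) and sls-2.16 with 96.8 (rank 231). By distance, sls-2.2 was the last inside, at 156 bp, and sls-2.3 the first outside, since the region of sls-2.2 lay 301 bp from it.

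The remaining pooled signals were 38.7 at sls-2.13 (rank 4662), 36.5 at sls-2.10 (rank 5828), 33.1 at sls-2.12 (rank 8082) and 29.4 at sls-2.11 (rank 11671). All 4 were above the median of 26.8 over the 30000 pooled entries, a list that includes background. Their deposited −log10 q-values were low, from 0.31 at sls-2.11 to 0.64 at sls-2.13. No pooled entry lay within 200 bp of sls-2.3, sls-2.6, sls-2.7 or sls-2.17. Of these, sls-2.6 had none in either replicate, sls-2.7 had 12.6 in replicate 4 (rank 22973) and none in replicate 3, and sls-2.3 and sls-2.17 had entries in both. In replicate 4 sls-2.14 (24.5) lay below sls-2.5 (32.7), sls-2.19 (27.6) and sls-2.18 (26.3), and in replicate 3 sls-2.2 (40.8) lay below sls-2.9 (44.3), so that the listed and other genes overlapped in each replicate alone.

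By chromosome, 4 of 6 sls-2 genes on chromosome III, 2 of 3 on chromosome II, 1 of 4 on chromosome I and 0 of 6 on chromosome IV were among the 7. These counts follow from the choice of members and were not tested.

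Some genes of nearly the same sequence differed in signal. The gene sls-2.4 was 96.4% identical to sls-2.2 and had a thresholded signal of 244.6, against 100.6 at sls-2.2. The pair sls-2.14 and sls-2.15 was 92.9% identical, with 96.9 and 129.2. In replicate 3 this pair was close in signal, with 66.6 and 68.8, and only in replicate 4 was it apart, with 24.5 and 61.2. The gene sls-2.3 was 97.3% identical to sls-2.2 over its whole length and had no thresholded region within 200 bp. That follows from the distance used, since the region between sls-2.2 and sls-2.3 had its summit 156 bp past sls-2.2 and 301 bp past sls-2.3. The closest copy of sls-2.16 was sls-2.5 (90.0%), and that of sls-2.8 was sls-2.7 (83.2%), both outside the list. Identity had a median of 78.9% over the 21 pairs of listed genes, 75.0% over the 66 pairs of other genes and 76.0% over the 84 pairs between them. The listed genes are thus not 1 sequence type.

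**Figure D3:**
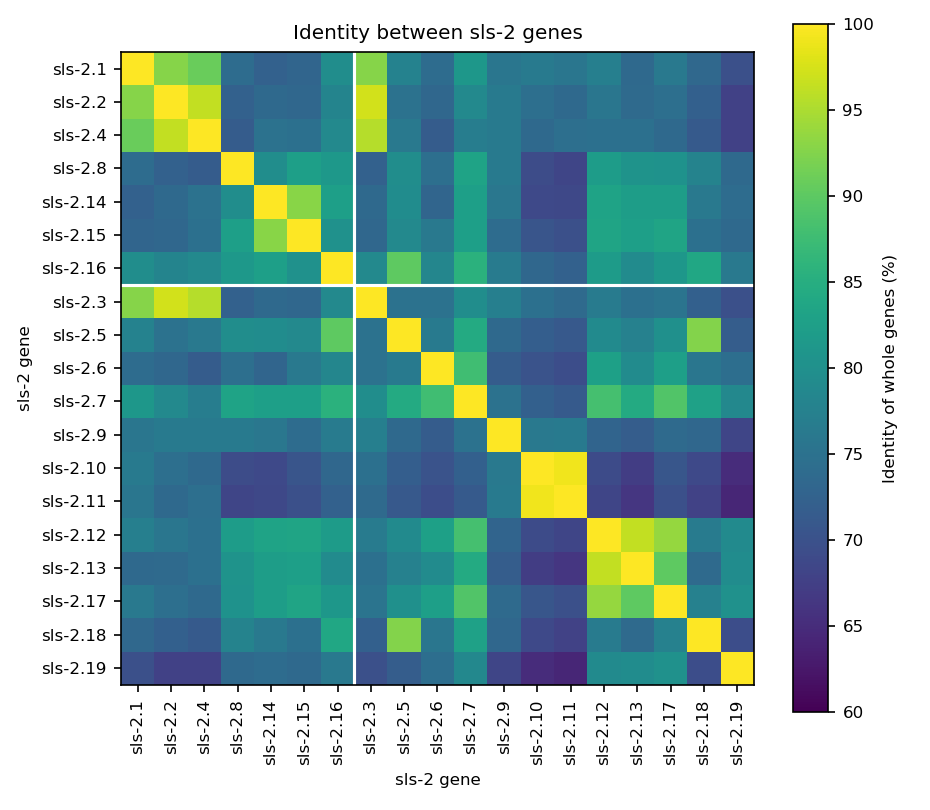
Identity between whole sls-2 genes in percent, from global alignment, with both axes listing the genes and white lines separating the 7 listed genes from the other 12. The block of sls-2.1, sls-2.2 and sls-2.4 extends to sls-2.3 (97.3% with sls-2.2), and sls-2.10 and sls-2.11 form the closest pair at 99.1%.

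Close copies can share reads, and how the authors treated reads that map to several places is not given in the sources used here. The share of 36-base stretches found once in the genome was therefore computed. In the 200 bp upstream and the 200 bp downstream it was 100% for all 7 listed genes. Inside the gene it was 41.3% at sls-2.1, 53.3% at sls-2.2 and 78.7% at sls-2.4, and 100% at sls-2.8, sls-2.14, sls-2.15 and sls-2.16.

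Among the 12 other genes the share inside the gene ran from 33.3% (sls-2.12) to 100%, and in the flanks from 51.5% (upstream of sls-2.12 and sls-2.19) to 100%. Downstream of sls-2.5 and sls-2.18 it was 60.6%. Over the gene with both flanks the median was 100% for the 7 genes and 86.0% for the other 12. Among those 12 it ran from 60.4% (sls-2.12) to 99.4% (sls-2.6). The part of repeated sequence in the difference in signal was not tested.

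**Figure D4:**
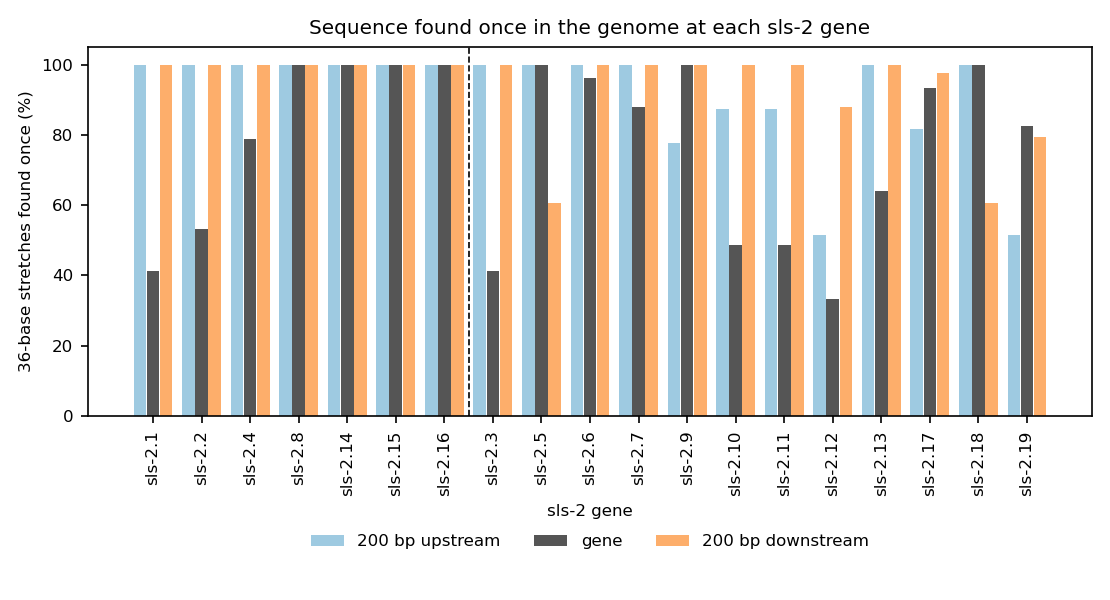
Share of 36-base stretches found once in the genome (percent) in the 200 bp upstream, the gene and the 200 bp downstream of each sls-2 gene, with the 7 listed genes left of the dashed line. Flanks of the 7 genes are at 100%, and the gene bars of sls-2.1, sls-2.2 and sls-2.4 are at 41.3%, 53.3% and 78.7%.

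Upstream of the start the sls-2 genes share letters at fixed distances, in the place where snRNA genes carry their promoter element. The 30 bases from -70 to -41 are shown for 6 of the 7 genes, with TGTC at -48 to -45 in capitals. These positions were chosen after the sequences had been seen.
sls-2.1 (chrII:5844795-5844824, forward): gttattcgcttgcctcgaaagaTGTCtgta
sls-2.2 (chrII:5543528-5543557, forward): gttactcgcttgcctcgaaagcggtcggta
sls-2.8 (chrIII:12250395-12250424, forward): gcacccggcggaacccggcaaaTGTCcgtc
sls-2.14 (chrIII:11090564-11090593, reverse): gcggcgcgcggaacccgcgagaTGTCggca
sls-2.15 (chrIII:11090940-11090969, forward): gtggtgggcggaacccgcgagaTGTCggca
sls-2.16 (chrIII:7141321-7141350, forward): gtggtgttcggaacccgcgataTGTCgggg

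At this place TGTC was found on the gene strand in 6 of the 7 genes and 8 of the other 12, in 5.05% of other snRNA genes and in 0.416% of all other genes. The exceptions were sls-2.2, sls-2.6, sls-2.7, sls-2.10 and sls-2.11, and sls-2.10 and sls-2.11 had TGTC shifted by 1 base. Anywhere in the 100 bp upstream, on either strand, it was found in all 19 genes and in 39.7% of other genes. In 13 of the 100 upstream positions at least 15 of the 19 genes had the same base. The genes with and without a region thus shared these letters.

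The 8-base word CGGAACCC, on the gene strand from -62, was present upstream of sls-2.8, sls-2.14, sls-2.15 and sls-2.16 and of 1 other gene, sls-2.7. CGAAACCC, at the same distance, was present in 6 of the other genes and in none of the 7. On either strand within 100 bp upstream these words were found in 0.156% and 0.19% of all other genes. Both words were picked from the 10 most shared upstream words because they divide the family. Others of the 10 did not divide it in this way: AACCCGCG, from -59, was upstream of 3 of the 7 genes and 3 of the other 12, and in 0.105% of all other genes on either strand. The gene sls-2.7, which had CGGAACCC, had no pooled entry. TATAA within 50 bp upstream on the gene strand was found only at sls-2.1 among the 19 genes and in 12.1% of all other genes. On either strand it was found at 1 of the 7 and 1 of the other 12, and in 17.5% of all other genes.

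Around the 7 summits themselves only exact 8-base words were counted, which cannot show a motif with variable letters. In windows of 50 bp on each side, no such word on either strand was present at 3 or more of the 7 summits. At 2 summits 11 were present, a number that was not set against other summits. The G and C content of these windows was 26.7% at sls-2.2, 27.7% at sls-2.8, 34.7% at sls-2.4, 41.6% at sls-2.16, 42.6% at sls-2.14, 44.6% at sls-2.1 and 48.5% at sls-2.15. Their median of 41.6% compares with 47.5% over all 369 thresholded summits, whose lowest value, 26.7%, was that of sls-2.2.

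The SL1 genes gave no entry. None of the 12 sls-1 genes, all on chromosome V, had a summit within 200 bp in the thresholded, pooled or replicate lists. The share of 36-base stretches found once was 0.0% in all 12 genes, and over gene and flanks it had a median of 0.0% and a highest value of 22.5%. The highest value was at sls-1.12, with 21.8% upstream and 41.2% downstream. The part of repeated sequence in the absence of an entry was not tested.

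Of 25 protein genes chosen as related to this pathway, 0 had a thresholded summit within 200 bp, where 1.49% of all 19971 protein-coding genes had one. A pooled candidate was near 56.5% of protein-coding genes, which is the level to set the following counts against. That share includes summits inside a gene and was not matched for gene length. Of sna-1, sna-2, sna-3, sut-1 and sut-2, all 5 had a pooled candidate, the strongest at sna-3 with 49.3 (rank 1889). Of the Sm protein genes snr-1 to snr-7, 3 of 7 had one, at best rank 6324. All 4 genes for 3′ end formation and splice site recognition (cpf-1, cpf-2, uaf-1 and uaf-2) had one, the strongest at uaf-1 with 45.4 (rank 2577). Of the 9 genes for snRNA transcription, the SNAP complex and tbp-1, 6 had one, the strongest at snpc-1.2 with 44.8 (rank 2711).

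Summits past the gene end were also found at other snRNA genes. Of the 6 that had a thresholded summit within 200 bp, 4 had it past the end, 1 inside (H27M09.6) and 1 upstream (F54D8.7), with a median of 171 bp from the start. The genes sup-39 and mir-1831 shared a region (signal 104.4, rank 194), so the 4 past the end are not separate regions. The median counts this region at both genes as well. The gene mir-1831, 22 bp long, is counted by its snRNA annotation but carries a microRNA name. The strongest was W05B2.8, with a signal of 189.3 (rank 21) and a summit 50 bp past its end. These values lie within the range of -18 to 265 bp of the 7 sls-2 genes except that of F54D8.7, at -29 bp.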

How the data were processed

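The deposited files are lists of ChIP-seq regions on ce11 from 2 replicates, with no reads used. According to the labels and the notes deposited with them, each replicate list and the pooled list hold peaks and background as input to the irreproducible discovery rate procedure, made with a control, and the thresholded list was derived from them. No source used here names the aligner, the caller or a version. The signal is the authors' value as deposited, with a scaling that is not stated, and the −log10 q-value is the authors' as deposited and was not used for ranking. The lists on ce10 were not used here.

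All regions ended within the chromosomes of the reference genome WBcel235. Genes were taken from RefSeq, and the 19 sls-2 genes had the same coordinates in Ensembl release 115. Summits were counted from 1, and the strongest entry with a summit within 200 bp of the gene was taken. Calculations used Python 3.11.15, scipy 1.17.1 and Biopython 1.88, and the assignment of summits to genes was checked on positions with known answers. Identity came from global alignment. The members and lists were chosen with earlier results of these data known, and no test was run, since the members were chosen by their regions. Named genes were all sls-2 genes, the neighbours of each listed summit and pathway genes. Names of other snRNA genes and of pathway genes without a region fall outside this rule and were chosen after their values were seen. Replicates came from separate biological samples per the labels.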

Additional observations from a re-analysis of the deposited data

How the results depend on the processing

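The number of the 7 genes with a region was 5 to 7 with other distances, region overlap, pooled entries or Ensembl coordinates, and 6 without either replicate. Among the 184 strongest thresholded regions it was 3, namely sls-2.1, sls-2.4 and sls-2.15. The count of other sls-2 genes rose from 0 to 1 (sls-2.3) with a distance of 500 bp, since that distance reaches the region of sls-2.2, and was 0 under the other settings. The median summit position of 164 bp from the gene start was 157 bp with a distance of 100 bp, 110 bp among the 184 strongest regions, 175 bp with the strongest pooled entries and 153 to 155 bp when 1 replicate was left out, where the nearest of the 369 strongest entries of the other replicate was taken. Those values rest on 3 to 7 genes. The share of sequence found once over all 19 genes and flanks, 89.3% with 36-base stretches, was 93.8% with 50-base stretches and 77.4% in the genes alone. No read depth is known, so no limit of detection can be given for the genes without an entry.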
